A study of Mus musculus with 12 samples.

Results

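The transcripts described here encode the receptors for dopamine, a phosphatase inhibitor that dopamine controls in receiving cells, its nearest relative, and the pair of enzymes that oxidise dopamine. They were chosen by name from the 3 deposited expression tables and comprise 8 genes: the receptors Drd1 (listed under its older symbol Drd1a), Drd2, Drd4 and Drd5, the phosphatase inhibitors Ppp1r1b (DARPP-32) and Ppp1r1a (inhibitor-1), and the monoamine oxidases Maoa and Maob. All 8 were found at 1 locus each in every table, out of 39430 gene names shared by the 3 tables. RNA of the prefrontal cortex came from male C57BL/6 mice (C57BL/6 J in the study's methods) 10 weeks old that had received repeated injections of cocaine or, in the chronic control groups, of saline, with tissue taken at 2 h, at 24 h or at 7 d from the final injection. These 6 groups gave 12 libraries, 2 for each group, and every library pooled the tissue of 5 mice (60 mice in all). The dissection took the front of the brain on both sides, with frontal association, prelimbic and orbital cortex. Values are FPKM, fragment numbers scaled to transcript length and to the mapped fragments. The tables hold 1 FPKM for each group, pooled over its libraries, so no spread between libraries, no SD and no p could be given here. Each cocaine to saline ratio was instead read against the share of all genes with a ratio of at least that size. How deeply each library was sequenced cannot be read from these tables.

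Dopamine reaches the prefrontal cortex from midbrain neurons and is known there for its role in working memory and in the response to drugs of abuse. D1-type receptors (Drd1, Drd5) raise cyclic AMP through stimulatory G proteins, and D2-type receptors (Drd2, Drd4) lower it through inhibitory ones. Cyclic AMP activates protein kinase A, which phosphorylates DARPP-32 and inhibitor-1 and so turns both into inhibitors of protein phosphatase 1. Monoamine oxidases sit on the outer membrane of mitochondria and break down dopamine, noradrenaline and serotonin after uptake. Cocaine blocks the transporter that carries dopamine back into the nerve ending.

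The 8 genes covered a wide range of levels. Over the 6 groups Ppp1r1a had a mean of 77.7 FPKM, Ppp1r1b 49.9, Maob 13.2, Maoa 8.76, Drd1 0.764, Drd5 0.623, Drd4 0.559 and Drd2 0.203 FPKM. Levels are per kilobase, so that genes can be compared with each other, but each time point was normalised by the authors on its own and differences between time points are given only as a description. The lowest of the 6 values of Ppp1r1a (72.4 FPKM) lay above the highest of Ppp1r1b (57.7), and the lowest of Maob (11.8) above the highest of Maoa (9.44). Drd1, Drd5 and Drd4 spanned 0.648 to 0.925, 0.441 to 0.735 and 0.401 to 0.717 FPKM, so their ranges overlapped and their order was not separated. Drd2, between 0.146 and 0.234 FPKM, lay below the other 3 receptors in every group. Among genes with a level above 0, 96.2% had a lower mean than Ppp1r1a and 93.9% a lower mean than Ppp1r1b, against 44.3% for Drd1 and 34.2% for Drd2. In tissue RNA a low level can come from few cells with much of a transcript or from many cells with little of it, and these cannot be told apart.

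**Figure D1:**
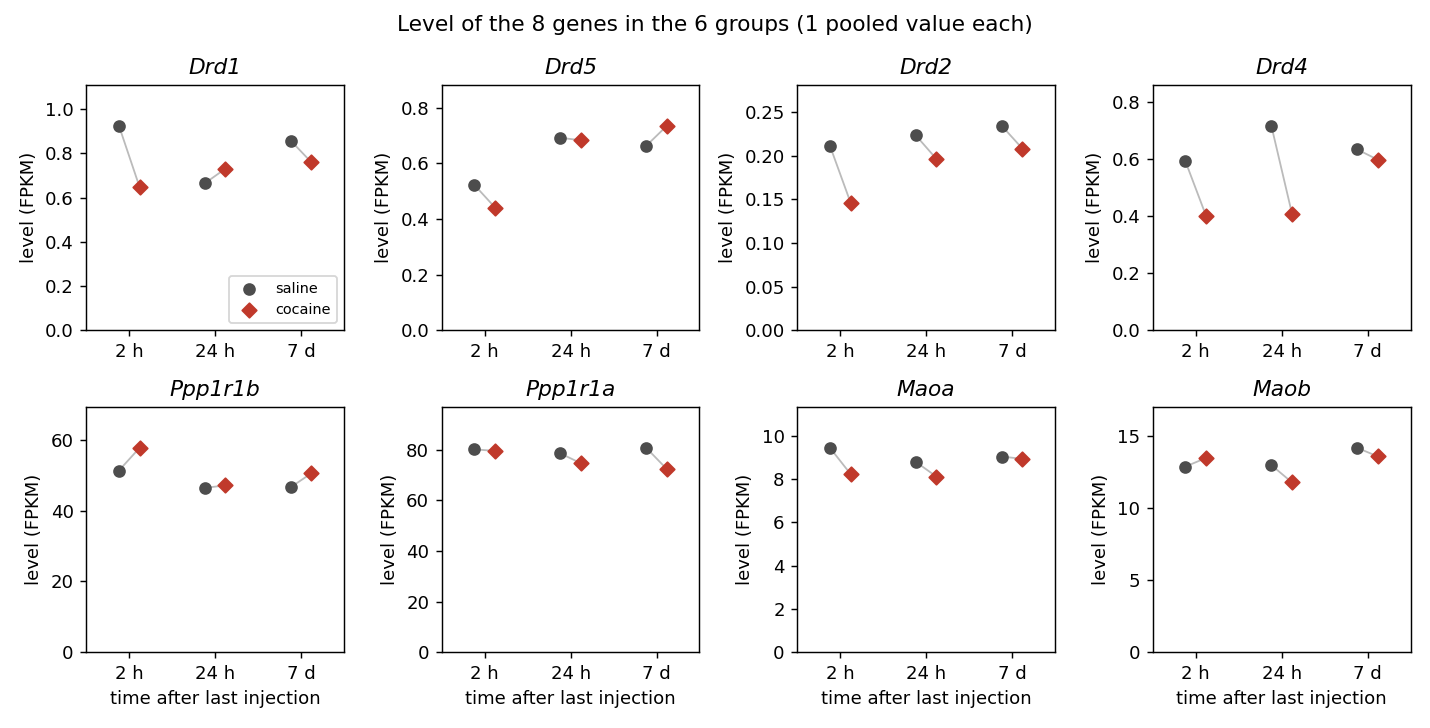
Level (FPKM, linear axes from 0, a scale of its own for each gene) of the 8 genes in the saline (grey circles) and cocaine (red diamonds) groups at 2 h, 24 h and 7 d after the last injection; each point is 1 value pooled over 2 libraries, without error, and a line joins the groups of a time point. The points of Drd4 are farthest apart at 24 h (0.717 and 0.409 FPKM) and those of Drd1 at 2 h (0.925 and 0.648 FPKM), and the 3 cocaine points of Drd2 lie below its 3 saline points.

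Ratios are given as log2 of cocaine over saline after 0.1 FPKM was added to both, which makes the ratios of low genes smaller. A gene was counted as past the fold where 1 group was at least 25% above the other after this addition (0.32 on the log2 scale) and the mean of its saline and cocaine levels was at least 0.5 FPKM. Of the 8 genes, 5 had that level at 2 h, 7 at 24 h and 7 at 7 d. Past the fold were 1 of 5 at 2 h (Drd1, lower), 1 of 7 at 24 h (Drd4, lower) and 0 of 7 at 7 d. Of all genes with that level, 14.7% were past the fold at 2 h, 10.3% at 24 h and 15.3% at 7 d, so the counts among the dopamine genes were close to the background. Low genes spread more than high ones. Among genes of 0.5 to 5 FPKM the shares were 26.0%, 19.1% and 23.4% at the 3 time points, and among genes of 5 FPKM or more they were 6.99%, 4.19% and 9.51%. Of all 8 genes whatever their level, 6 were lower and 2 higher in cocaine at each time point, although not the same 6, with median log2 ratios of -0.20, -0.09 and -0.07. The medians of all genes with the required level were 0.02, 0.01 and -0.01. The share of all genes that were lower at each time point was not counted.

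**Figure D2:**
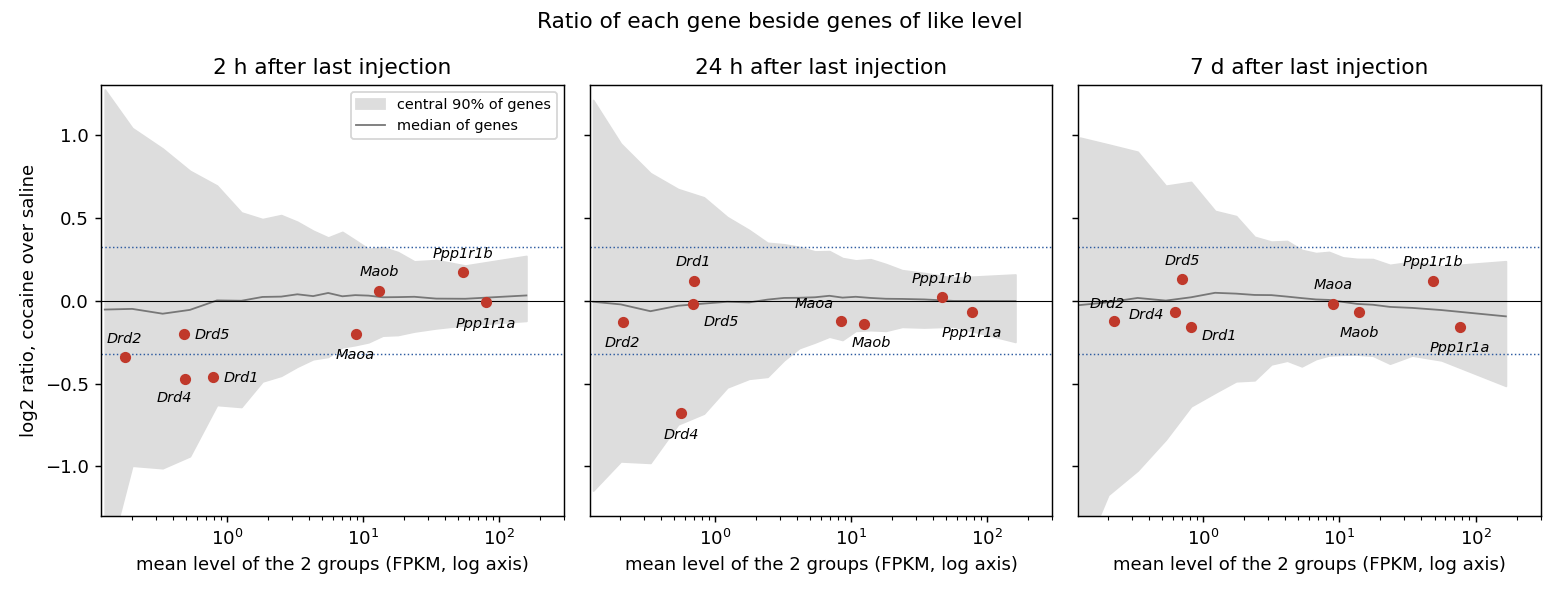
Log2 ratio of cocaine over saline (vertical axis) against the mean level of the 2 groups (FPKM, log axis) for the 8 genes (red) at each time point; the grey band holds the central 90% of genes of like level, the grey line is their median and the dotted lines mark a group 25% above the other. All 8 genes lie within the band at each time point; Drd4 at 24 h, at -0.68, is the nearest to its lower edge among the receptors.

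Drd1 encodes the main D1-type receptor of the cortex and lies on chromosome 13 (54051186 to 54055658, GRCm38). Its level was 0.925 FPKM in saline and 0.648 FPKM in cocaine at 2 h, 0.665 and 0.731 FPKM at 24 h, and 0.858 and 0.760 FPKM at 7 d. Cocaine was thus lower at 2 h and 7 d and higher at 24 h, and the saline and cocaine values overlapped over the time points. The log2 ratio of -0.46 at 2 h (1.37-fold lower) was reached or passed by 8.11% of all genes and by 14.6% of genes of 0.5 to 5 FPKM. At 24 h and 7 d the ratios were 0.12 and -0.16, sizes that 40.1% and 43.7% of all genes reached. The 3 saline groups, which had no cocaine, themselves ranged over 1.34-fold for Drd1, and 30.1% of genes had a saline range of at least that 25%. The ratio at 2 h was about as large as this difference between saline groups of different time points. The saline value at 2 h enters both, and each time point was normalised on its own, so the saline range is not an independent measure.

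Drd5, the second D1-type receptor (chromosome 5, 38317333 to 38322310), was lower in cocaine at 2 h and 24 h and higher at 7 d. Its levels in saline and cocaine were 0.522 and 0.441 FPKM at 2 h, 0.692 and 0.683 FPKM at 24 h, and 0.663 and 0.735 FPKM at 7 d. The log2 ratios were -0.20, -0.02 and 0.13, none past the fold, and at 2 h the mean level was under 0.5 FPKM. Both groups at 2 h lay below all 4 groups of the later time points. The saline groups ranged over 1.27-fold, more than any ratio of cocaine to saline of this gene. The lowest saline value, 0.522 FPKM, also enters the ratio at 2 h.

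Drd4, a D2-type receptor known in the prefrontal cortex for its place in interneurons and pyramidal cells, lies on chromosome 7 (141292006 to 141294999). The levels in saline and cocaine were 0.592 and 0.401 FPKM at 2 h, 0.717 and 0.409 FPKM at 24 h, and 0.634 and 0.598 FPKM at 7 d. Cocaine was lower at each time point, with log2 ratios of -0.47, -0.68 and -0.07. The ratio at 24 h (1.61-fold lower) was the largest of the 24 ratios of the 8 genes, and 3.38% of all genes and 5.49% of genes of 0.5 to 5 FPKM had one at least as large. At 2 h the mean level of 0.496 FPKM fell just short of the 0.5 FPKM required. Of genes with that level at every time point, which Drd4 thus was not, 14.3% were lower at all 3. The cocaine value at 7 d lay above the saline value at 2 h, so the groups overlapped over the 3 time points, and the saline groups ranged over 1.18-fold.

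Drd2 encodes the D2 receptor, the target of antipsychotic drugs (chromosome 9, 49340662 to 49407214). Its levels were 0.211 FPKM in saline and 0.146 FPKM in cocaine at 2 h, 0.223 and 0.196 FPKM at 24 h, and 0.234 and 0.208 FPKM at 7 d. All values were under 0.5 FPKM, so the gene entered none of the counts past the fold. The log2 ratios were -0.34, -0.13 and -0.12, all lower in cocaine, and the 3 cocaine values (0.146 to 0.208 FPKM) did not overlap the 3 saline values (0.211 to 0.234 FPKM). The gap between these ranges was small, and 10.0% of 4427 genes under 0.5 FPKM that were above 0 in all groups had no overlap in either direction. Among 14175 genes of at least 0.5 FPKM at every time point the share was 8.0%. Drd3, the remaining dopamine receptor, was listed at 0 in 4 of the 6 groups and at 0.0156 FPKM in saline and 0.0370 FPKM in cocaine at 2 h.

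Summed over Drd1, Drd2, Drd4 and Drd5, receptor transcripts came to 2.25, 2.30 and 2.39 FPKM in the saline groups at 2 h, 24 h and 7 d, and to 1.63, 2.02 and 2.30 FPKM in the cocaine groups. At 2 h all 4 receptors were lower in cocaine, at 24 h 3 of 4 and at 7 d 3 of 4. The share of genes of like level that were lower was not counted. Classes of genes at about 0.2 to 0.8 FPKM had median log2 ratios of -0.079 to 0.001 at 2 h. Their medians were -0.064 to -0.018 at 24 h and -0.01 to 0.02 at 7 d. The make-up of the sum was not constant. The ratio of Drd1 to Drd4 was 1.56, 0.927 and 1.35 in saline and 1.62, 1.79 and 1.27 in cocaine, whereas Drd1 to Drd2 was 4.39, 2.98 and 3.66 in saline and 4.45, 3.72 and 3.65 in cocaine.

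The stretches before the transcription starts of Drd1 and Drd4, the receptors past the fold at 1 time point each, and of Maoa, the most abundant of the genes that were lower at each time point and had a listed start, are shown as the receptors with the largest ratios and, for Maoa, as an enzyme beside them. They come from RefSeq (GRCm38.p6), run 5′ to 3′ on the strand of the gene and end where the annotated gene begins. Capitals mark 3 motifs, each searched on both strands. They are the GC box, with the letters GGGCGG, then the TATA box, which was searched as TATAAA, and the core of the cyclic AMP response element, for which the search used TGACG.
Drd1, chr13:54055659-54055908, minus strand: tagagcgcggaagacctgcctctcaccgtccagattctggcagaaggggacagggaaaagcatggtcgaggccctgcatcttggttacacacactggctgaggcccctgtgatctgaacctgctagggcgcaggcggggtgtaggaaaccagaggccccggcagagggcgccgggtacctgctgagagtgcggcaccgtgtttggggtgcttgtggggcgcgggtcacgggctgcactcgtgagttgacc
Drd4, chr7:141291768-141291973, plus strand: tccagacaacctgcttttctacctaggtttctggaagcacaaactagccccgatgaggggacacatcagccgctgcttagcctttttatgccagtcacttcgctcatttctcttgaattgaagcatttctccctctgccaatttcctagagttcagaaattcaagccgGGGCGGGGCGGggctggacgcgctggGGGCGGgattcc
Maoa, chrX:16619448-16619697, plus strand: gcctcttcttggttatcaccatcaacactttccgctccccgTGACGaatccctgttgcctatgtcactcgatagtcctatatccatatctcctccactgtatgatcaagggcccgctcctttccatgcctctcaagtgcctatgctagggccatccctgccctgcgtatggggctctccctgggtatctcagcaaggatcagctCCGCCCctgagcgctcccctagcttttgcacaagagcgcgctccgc
Over the 250 bases before each start, the Drd1 window shown held none of the 3 motifs at a GC content of 64.0%, the Drd4 window 3 GC boxes, of which a pair overlaps, at 56.8%, and the Maoa window 1 GC box and 1 TGACG at 56.8%. A second listed start of Drd1, inside the annotated gene, had a window with 1 GC box at 60.8% GC. Drd5 and Drd2 held 2 GC boxes each, at 71.2% and 68.8% GC. No window of these 5 genes held TATAAA, and those of Ppp1r1b, Ppp1r1a and Maob were not analysed here. Of 32851 windows of the same length, 32.7% held a GC box, 12.4% TATAAA and 17.8% TGACG, and the median GC content was 52.4%. These letters are a description of the windows and do not show that a factor bound there.

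Ppp1r1b (chromosome 11, 98348404 to 98358283) encodes DARPP-32, which integrates dopamine and glutamate signals by inhibiting protein phosphatase 1. Its levels in saline and cocaine were 51.3 and 57.7 FPKM at 2 h, 46.4 and 47.1 FPKM at 24 h, and 46.6 and 50.5 FPKM at 7 d. It was the only one of the 8 genes that was higher in cocaine at each time point, with log2 ratios of 0.17, 0.02 and 0.12, all short of the fold. Of genes with the required level at every time point, 18.4% were higher at all 3. The saline value at 2 h exceeded the cocaine values at 24 h and 7 d, so the groups overlapped. At 2 h, 35.4% of all genes and 23.9% of genes of 5 FPKM or more had a ratio of at least that size.

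Ppp1r1a (chromosome 15, 103530080 to 103538535 at 2 h and 24 h, 103530067 to 103538281 at 7 d) encodes inhibitor-1, which acts on the same phosphatase. Its levels were 80.2 FPKM in saline and 79.6 FPKM in cocaine at 2 h, 78.6 and 74.7 FPKM at 24 h, and 80.8 and 72.4 FPKM at 7 d. Cocaine was lower at each time point, by log2 ratios of -0.01, -0.07 and -0.16, and 14.3% of genes with the required level were lower at all 3. The cocaine value at 2 h lay above the saline value at 24 h, so the groups overlapped. The 3 saline groups lay within 1.03-fold of each other, the narrowest saline range of the 8 genes. At 7 d, where 43.1% of all genes had a ratio at least as large, the ratio was -0.04 once the trend of ratios with transcript length was taken out. With that trend taken out, the ratio at 2 h was 0.0. The ratio of Ppp1r1a to Ppp1r1b was 1.56, 1.69 and 1.74 in saline and 1.38, 1.59 and 1.43 in cocaine, lower in cocaine at each time point. Per Drd1 transcript, Ppp1r1b came to 55.5, 69.7 and 54.3 in saline and 89.2, 64.4 and 66.5 in cocaine.

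Maoa and Maob lie next to each other on chromosome X (16619698 to 16687818 and 16709279 to 16817366; at 7 d the Maob locus starts at 16709282). MAO-A prefers serotonin and noradrenaline and MAO-B phenylethylamine, and both oxidise dopamine. Maoa had 9.44 FPKM in saline and 8.23 FPKM in cocaine at 2 h, 8.79 and 8.11 FPKM at 24 h, and 9.04 and 8.93 FPKM at 7 d. It was lower in cocaine at each time point, with log2 ratios of -0.20, -0.12 and -0.02. Of genes with the required level at every time point, 14.3% were lower at all 3. The cocaine value at 7 d lay above the saline value at 24 h, so the groups overlapped. At 2 h, 30.2% of all genes and 19.1% of genes of 5 FPKM or more had a ratio of at least that size.

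Maob had 12.9 FPKM in saline and 13.5 FPKM in cocaine at 2 h, 13.0 and 11.8 FPKM at 24 h, and 14.2 and 13.6 FPKM at 7 d. Its log2 ratios were 0.06, -0.14 and -0.07, higher in cocaine at 2 h and lower at the later time points. Maob exceeded Maoa in all 6 groups. The ratio of Maob to Maoa was 1.37, 1.48 and 1.58 in saline and 1.64, 1.46 and 1.52 in cocaine, which at 2 h was higher in cocaine and at the later time points slightly lower. Neither gene was past the fold at any time point.

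The remaining genes of dopamine signalling were taken as a list of 67 genes, from dopamine synthesis to the targets of protein kinase A. Of these, 60, 59 and 59 had the required level at 2 h, 24 h and 7 d, and 3 (5.0%; 2 higher, 1 lower), 1 (1.69%; lower) and 3 (5.08%; 1 higher, 2 lower) were past the fold, against the 14.7%, 10.3% and 15.3% of all genes given above. Most list genes were high: of the 54, 53 and 52 at 5 FPKM or more, 1 (1.85%), 0 and 1 (1.92%) were past the fold, where all genes of that level had 6.99%, 4.19% and 9.51%. Of the 6, 6 and 7 between 0.5 and 5 FPKM, 2, 1 and 2 were past the fold. Median log2 ratios of the list were 0.04, 0.00 and 0.03. None of the G proteins (9 genes with the required level), protein kinase A subunits and anchor (7), phosphatases (8), other kinases of DARPP-32 (5) or targets (4) was past the fold at any time point.

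Past the fold at 1 or more time points were genes of synthesis, cyclic AMP breakdown and receptor regulation. Th, the rate-limiting enzyme of dopamine synthesis, was under 0.5 FPKM in every group but lower in cocaine by more than the fold at each time point. Its levels were 0.293 and 0.112 FPKM in saline and cocaine at 2 h, 0.433 and 0.192 FPKM at 24 h, and 0.392 and 0.214 FPKM at 7 d, without overlap of the groups. Of the 4427 genes under 0.5 FPKM, 10.0% had no overlap in either direction, and 1.83% were lower past the fold at all 3 time points. Ddc, which turns L-DOPA into dopamine, had 2.13 and 2.65 FPKM at 2 h, 2.71 and 2.13 FPKM at 24 h, and 2.58 and 1.81 FPKM at 7 d, so its direction at 2 h was the opposite of that at the later time points. Dbh, which turns dopamine into noradrenaline and was also under 0.5 FPKM, had 0.142 FPKM in saline and 0.239 FPKM in cocaine at 24 h and 0.119 and 0.175 FPKM at 7 d. The share of genes under 0.5 FPKM with ratios like those of Dbh was not counted. For their low level, Th and Dbh entered none of the counts past the fold.

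Pde10a, a phosphodiesterase that breaks down cyclic AMP and is abundant in striatal neurons, had 4.34 FPKM in saline and 5.86 FPKM in cocaine at 2 h (log2 ratio 0.43). Rgs9, a regulator of G-protein signalling of the striatum, was lower in cocaine at 2 h (1.87 and 1.37 FPKM, -0.42) and 7 d (2.41 and 1.84 FPKM, -0.37). Ppp1r9b, spinophilin, which binds D2 receptors and protein phosphatase 1, was higher at 7 d (210 and 274 FPKM, 0.38). Gch1, an enzyme of the cofactor that Th needs, was also past the fold at 2 h (0.442 and 0.806 FPKM). It lay outside the rule for named genes and was added after its values were seen.

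**Figure D3:**
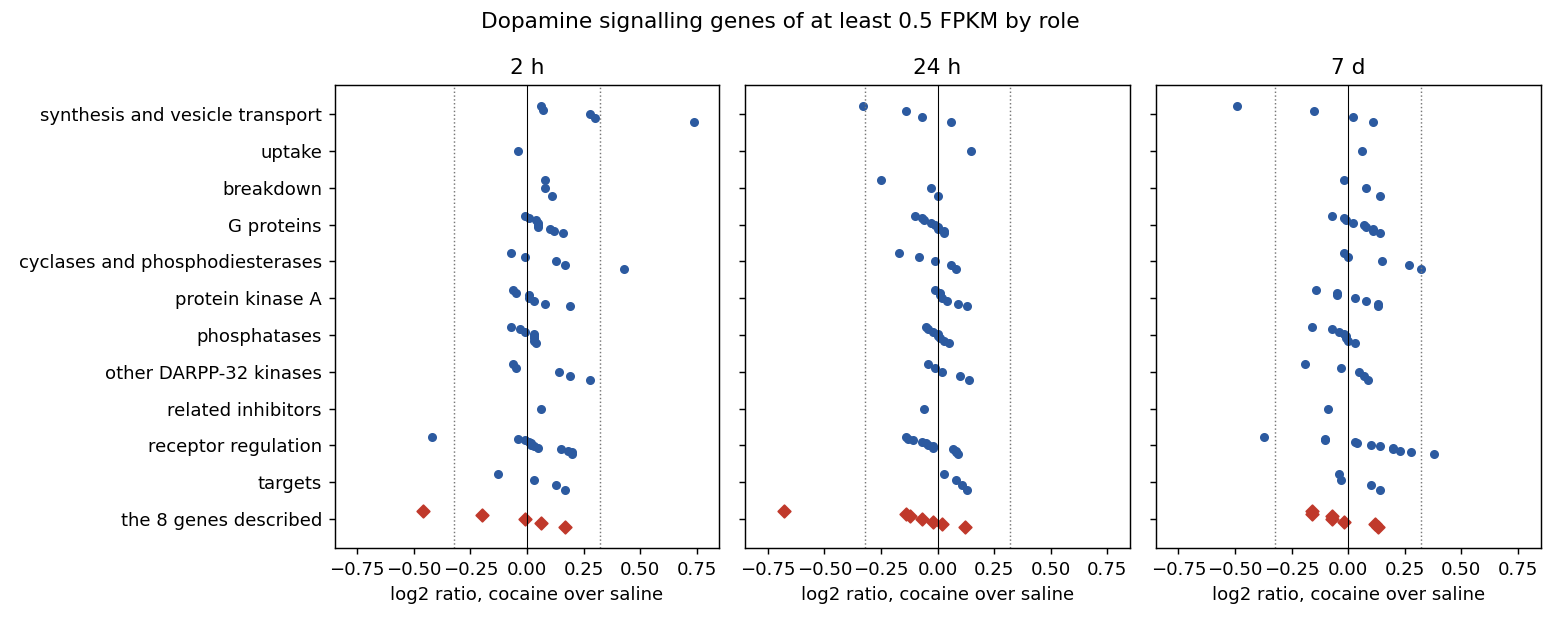
Log2 ratio of cocaine over saline (horizontal axis) of the genes of the dopamine signalling list (blue circles) by role and of the 8 genes described (red diamonds) at 2 h, 24 h and 7 d, for genes with a mean of at least 0.5 FPKM; each point is 1 gene and the dotted lines mark a group 25% above the other. Points past the dotted lines are 3 list genes at 2 h, 1 at 24 h and 3 at 7 d, besides Drd1 at 2 h (-0.46) and Drd4 at 24 h (-0.68).

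Ppp1r1b, Drd1 and Drd2 are far more abundant in the striatum than in cortex, and Drd1 and Ppp1r1b are known in cortex from the deep layers, so cell type markers were read in the same groups. The tissue carried the markers of cortical projection neurons at high levels: Slc17a7, the vesicular glutamate transporter, lay between 466 and 532 FPKM. The summed level of 10 striatal markers ranged from 97.7 to 106 FPKM in the saline groups and from 99.3 to 108 FPKM in the cocaine groups, of which Penk made up 60.2 to 68.5 FPKM. Of these 10, 8 had the required level, and 2 were higher and 2 lower past the fold at 2 h, none at 24 h, and 1 higher and 3 lower at 7 d, beside the 14.7%, 10.3% and 15.3% of all genes. Of those between 0.5 and 5 FPKM, 3 of 4 were past the fold at 2 h, 0 of 5 at 24 h and 3 of 5 at 7 d, and for layer 6 markers 3 of 4, 2 of 4 and 1 of 4, where all genes of that level had 26.0%, 19.1% and 23.4%. The transcription factor Isl1, which defines striatal neurons of the direct pathway, was listed at 0 in 5 of 6 groups (0.0131 FPKM in cocaine at 2 h), and Six3 lay between 0.0234 and 0.0610 FPKM. Layer 6 markers summed to 12.8 FPKM in saline and 14.8 FPKM in cocaine at 2 h, 14.3 and 14.2 FPKM at 24 h, and 12.9 and 13.8 FPKM at 7 d, and of the 5 with the required level 3 were higher past the fold at 2 h and 2 lower at 24 h. The sixth, Nxph4, was lower in cocaine at 2 h (0.445 and 0.282 FPKM). Tle4 and Syt6, also of layer 6, were lower at 2 h by less than the fold (log2 ratios -0.04 and -0.19). The 3 that were higher at 2 h were Ctgf (2.32 and 3.80 FPKM, 0.69), Cplx3 (2.92 and 3.71 FPKM, 0.33) and Foxp2 (0.607 and 0.785 FPKM, 0.32). The 2 lower past the fold at 24 h were Foxp2 (-0.60) and Syt6 (-0.33). The summed layer 5 markers had log2 ratios of -0.05, 0.12 and -0.25.

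Of the cells known for monoamine oxidases, astrocytes had marker sums of 320 FPKM in saline and 351 FPKM in cocaine at 2 h, 366 and 327 FPKM at 24 h, and 313 and 350 FPKM at 7 d. Slc1a3 made up most of each of these sums, at 169 to 192 FPKM. Maob was higher at 2 h and lower at 24 h like these sums, but lower at 7 d where they were higher. Endothelial sums went from 121 to 137, 137 to 138 and 124 to 132 FPKM from saline to cocaine. Markers of monoamine neurons summed to 1.68 FPKM in saline and 2.06 FPKM in cocaine at 2 h, 2.01 and 1.81 FPKM at 24 h, and 1.98 and 1.94 FPKM at 7 d. Of these 5 markers the vesicular transporter Slc18a2 was the highest, at 1.13 to 1.43 FPKM, and Tph2, of serotonin synthesis, lay between 0.246 and 0.469 FPKM. The dopamine transporter Slc6a3 was at most 0.0670 FPKM and the serotonin transporter Slc6a4 at most 0.0402 FPKM. The part of these cell types in the ratios of the 8 genes was not tested.

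The other lists, apart from that of the choroid plexus, varied by similar amounts. Projection neuron markers summed to 1480 and 1590 FPKM in saline and cocaine at 2 h, 1650 and 1580 FPKM at 24 h, and 1380 and 1550 FPKM at 7 d. Most of each sum was Camk2a (895 and 1000, 1050 and 968, and 844 and 999 FPKM). At 7 d Neurod6 went the other way, lower past the fold (37.2 and 28.1 FPKM). Interneuron markers summed to 414 and 395, 478 and 469, and 456 and 419 FPKM, mostly from Sst (218 to 294 FPKM). Oligodendrocyte markers came to 605 and 565, 726 and 597, and 713 and 698 FPKM, microglial markers to 66.0 and 69.6, 69.4 and 65.0, and 63.4 and 68.4 FPKM. Markers of the olfactory bulb, which adjoins the dissected tip and holds Th-bearing cells, came to 7.20 and 6.46, 6.87 and 7.26, and 7.46 and 6.46 FPKM. Most of that sum was 1 locus that joins Doc2g with Nudt8 (5.83 to 6.71 FPKM), while Eomes, Cdhr1 and Th were each under 0.5 FPKM in every group. The 4 choroid plexus markers summed to 2.80 and 1.53, 2.80 and 2.01, and 1.45 and 7.49 FPKM. These differences were mostly those of Ttr (transthyretin), at 1.90 and 0.461 FPKM at 2 h, 1.80 and 1.10 FPKM at 24 h, and 0.284 and 6.54 FPKM at 7 d. At 7 d Folr1 went the other way (0.668 and 0.290 FPKM).

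**Figure D4:**
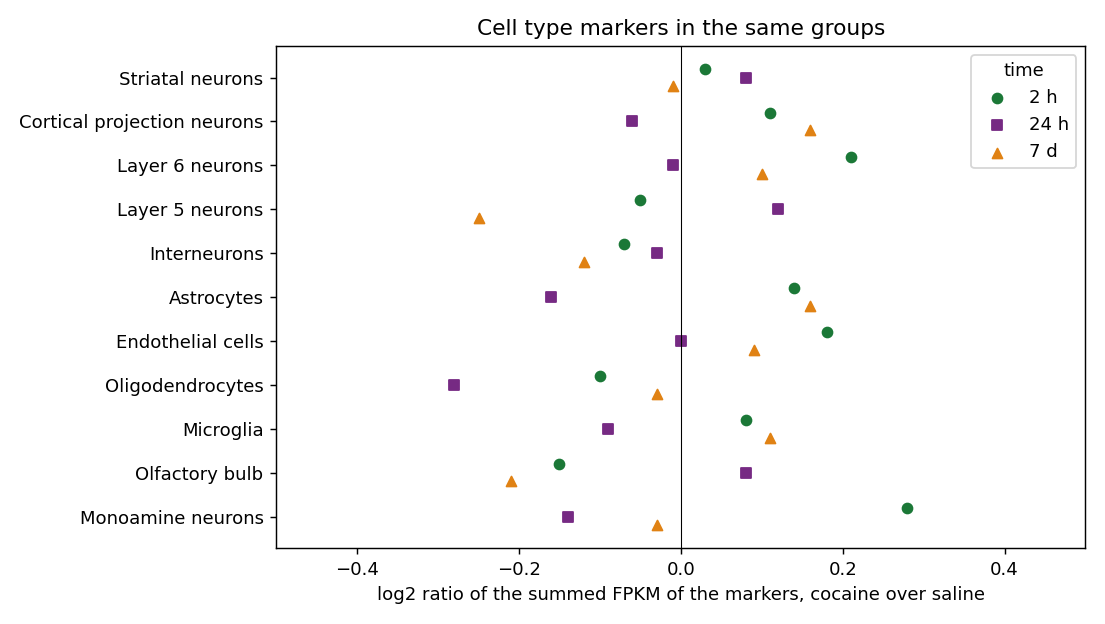
Log2 ratio of cocaine over saline (horizontal axis) of the summed FPKM of cell type markers, by list, at 2 h (green circles), 24 h (purple squares) and 7 d (orange triangles); each point compares 1 pooled saline with 1 pooled cocaine group, and the choroid plexus list, at 2.29 at 7 d, is not drawn. The sums of striatal markers stay between -0.01 and 0.08, and those of layer 6 are highest at 2 h (0.21).

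Other genes followed the 8 over the 6 groups, by Pearson's r of log2 levels, among genes of at least 1 FPKM on average. Loci that join several gene names were left out. The SD of a compared gene over the 6 groups also had to be at least 0.5 times that of the gene described. The set compared thus differed from gene to gene. The points share 3 tables and only 6 groups, and between 4890 and 12872 genes were compared with each gene, so high values of r are common: from 32 (Drd4) to 227 (Drd2) genes had an r over 0.9. The 3 genes most like Drd1 were Dph5 (0.989), Chrna1os (0.986) and Cdc42ep3 (0.983), and those most like Drd5 were Mas1 (0.995), Nwd2 (0.991) and Insig1 (0.990). Drd2 was most like Pde1a (0.995), Serpinb6a (0.991) and Spon1 (0.990), and Drd4 most like E430018J23Rik (0.989), Fcgr1 (0.983) and Mcm2 (0.983). The receptors themselves, all under 1 FPKM on average, were not among the genes compared. For Ppp1r1b the genes were Slfn2 (0.986), Crip1 (0.984) and Zbtb16 (0.984), for Ppp1r1a Slc38a6 (0.990), Bzw1 (0.986) and Ebpl (0.981). Maoa was most like Nmi (0.997), Zfp758 (0.985) and Zfp273 (0.983), and Maob most like Rnf11 (0.986), Exosc1 (0.980) and Tusc2 (0.979).

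The kit used for the libraries does not keep the strand of a transcript, so reads of overlapping genes cannot be told apart. Ppp1r1b overlapped 1700003D09Rik, which was listed at 0.0175 to 0.0732 FPKM, and Drd5 overlapped Gm26560, at 0 to 0.0709 FPKM. Drd2 overlapped Gm46111 in the RefSeq annotation, a gene that had no row of its own at this place. The other 5 genes overlapped no annotated gene. Beside the level of Ppp1r1b that of its neighbour was small, whereas Gm26560 reached 0.0709 FPKM in saline at 24 h, where Drd5 had 0.692 FPKM.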

How the data were processed

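Poly(A) RNA of 12 libraries was sequenced as paired ends (TruSeq v2 kit, not stranded; HiSeq2000). The read length is given differently in the sources. Per the submitters' processing notes, CASAVA 1.8.2, Trimmomatic 0.32, TopHat2 2.0.12, Cufflinks 2.2.1 and Cuffdiff were used with GRCm38 (mm10), whereas the study's methods name cutadapt and mm9. The loci lay on GRCm38: 99.7 to 99.8% of them overlapped the RefSeq GRCm38 gene of the same name, and starts were raised by 1 to count from 1. The authors deposited 1 table per time point, with 1 FPKM value per group and locus, pooled over the 2 libraries and normalised within that table. Their columns of log2 fold changes, test statistics, p-values and q-values were not used. Column headers did not say plainly which value was saline. For the middle time point the order was settled by a table of the study that names its saline and cocaine columns. No such values of the study could be read for the earliest and latest time points. There the same order was assumed, since the column headers have the same form.

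The longest locus was kept for each gene name, and loci without a name (1315 to 1624 per table) were left out. Computed here with Python 3.11.15, pandas 2.3.3, numpy 2.4.6 and matplotlib 3.10.9 were log2((cocaine + 0.1)/(saline + 0.1)), the share of genes with 1 group 25% above the other ("past the fold") among those of at least 0.5 FPKM, marker sums and likeness. With 1 value per group no test was run, and no common step among low values gave the depth. Alternatives were other pseudocounts, level filters, folds and loci, centring on the median of all genes, and taking out the trend with transcript length. The 8 genes and all lists were chosen with earlier results of these data known. The text names the 8 genes, the 3 genes most like each of the 8, and list genes chosen by a rule. These had a ratio past the fold, whatever their level, at 2 or more time points, or at 1 with a mean of at least 5 FPKM. Markers are named only in part, and not all markers past the fold are named.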

Additional observations from a re-analysis of the deposited data

How the results depend on the processing

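The 24 log2 ratios of the 8 genes were computed again with a pseudocount of 1 or 0.01 FPKM and after centring on the median of all genes. They were also computed with the length trend taken out and with the highest locus per gene name. In this order the shifts were at most 0.39, 0.16, 0.02, 0.12 and 0. All ratios kept their direction except that of Ppp1r1a at 2 h. It was -0.01 and became 0.0 with the length trend taken out, so its direction there was not settled. The counts past the fold rest on low genes. With a pseudocount of 1 FPKM or a filter of 1 FPKM, the 1 gene past the fold at 2 h (Drd1) and the 1 at 24 h (Drd4) became 0. Without a level filter the count at 2 h was 3, as Drd2 and Drd4 joined Drd1. At 1.5-fold it was 0 at 2 h and still 1 at 24 h. At 7 d it was 0 under every alternative. For the signalling list, the counts of 3, 1 and 3 at 2 h, 24 h and 7 d became 5, 4 and 6 without a filter and 1, 0 and 0 at 1.5-fold, and the count at 24 h was 0 with a pseudocount of 1 FPKM.

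The share of all genes past the fold also moved. It was 8.16%, 5.57% and 8.73% with a pseudocount of 1 FPKM and 5.07%, 4.15% and 4.58% at 1.5-fold. With the length trend taken out it was 6.77% at 24 h and 8.17% at 7 d, over the 80.4% of genes with a length at each of these time points, and without a filter it was 17.0% at 24 h. Leaving out loci whose estimate failed, an alternative chosen after seeing the data, moved no count of the 8 genes. Leaving out a library could not be run, since each value pools both libraries of a group. No paired analysis was possible because the deposited columns carry no library or replicate number. The depth is unknown from these tables, so its part in the ratios of the receptors, at 0.146 to 0.925 FPKM, was not tested.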
